A study of Mus musculus with 7 samples.

Results

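The ubiquitin-conjugating enzymes (E2s) and deubiquitinases of mouse were examined in the RNA of whole brain and kidney. Members were the probe sets whose only gene symbol in the platform annotation began with Ube2, Usp and a digit, Uch or Otu. On the sense arrays 238 of 45037 probe sets qualified and stood for 98 of 18193 named genes. These were 31 E2s, 63 deubiquitinases and 4 genes that share only the name. The deubiquitinases comprised 49 of the ubiquitin-specific protease (USP) family, 3 of the ubiquitin carboxy-terminal hydrolase (UCH) family and 11 of the ovarian tumour (OTU) family. The 4 others were Ube2cbp, which is a ligase, the GTPase-activating protein Usp6nl, the pseudogene Ube2d-ps and the noncoding Usp46os2. On the reverse arrays 23 of 5652 probe sets qualified, covering 22 genes.

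The series comprised 7 Affymetrix arrays. Reverse (antisense) signals of brain and of kidney came from a U74A and a U74B array each, and sense signals from a 430A and a 430B array for brain and a 430 2.0 array for kidney. Labelling started from 8 µg of total RNA for brain and 6.75 µg for kidney, and strain, age and sex are not given in the sources used here. Each tissue had 1 array of each kind, so no value has a replicate error, nothing could be tested and no p-value is given. Signals are in MAS5 units, a linear intensity per probe set, and their precision is limited by the number of arrays. The labelled tissues matched their markers: 10 of 10 neuronal genes were higher in brain, and kidney had the higher signal for 8 of 9 genes of the proximal tubule, all but Lrp2. Pituitary hormone genes were also high in the brain RNA, with growth hormone (Gh) at 5129.1 in brain and 33.8 in kidney, and a fat marker was high in the kidney RNA, with Fabp4 at 24 in brain and 4989.2 in kidney. Their part in the results was not tested. In whole tissue, fewer cells of a type and less RNA per cell cannot be told apart.

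Ubiquitin is activated by an E1 enzyme, passed to an E2 and placed on a target protein with the help of an E3 ligase. The E2 decides much of the outcome, from single ubiquitins to chains that mark a protein for the proteasome, and deubiquitinases cut ubiquitin off again, trim chains and recycle free ubiquitin. Neurons depend on this balance for synaptic protein turnover, and Uchl1 in particular is one of their classic marker proteins. In kidney, ubiquitination of channels and transporters sets how long these stay at the cell surface.

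The promoters of Uchl1 and Ube2ql1, the genes with the largest brain ratios, and of Ube2c, a kidney call below the measurable floor in brain, are shown first. Usp1, the widest kidney call read on the 430A array, had no entry in the promoter table used here. Each run is the 250 bases before the RefSeq transcription start on the GRCm38.p6 assembly, 5′ to 3′ on the gene's own strand. Capitals mark matches on either strand to CCAAT, to TTTGAA, to GGGCGG, to TATAAA, to CACGTG or to TGACGTCA. Uchl1 lies at chr5:66675871-66676120 on the plus strand, Ube2ql1 at chr13:69739898-69740147 on the minus strand and Ube2c at chr2:164769679-164769928 on the plus strand.
Uchl1: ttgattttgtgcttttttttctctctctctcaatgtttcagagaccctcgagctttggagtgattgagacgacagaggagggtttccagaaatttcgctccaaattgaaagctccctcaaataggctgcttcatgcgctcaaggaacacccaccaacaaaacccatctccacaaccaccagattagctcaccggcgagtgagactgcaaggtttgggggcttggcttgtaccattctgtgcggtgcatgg
Ube2ql1: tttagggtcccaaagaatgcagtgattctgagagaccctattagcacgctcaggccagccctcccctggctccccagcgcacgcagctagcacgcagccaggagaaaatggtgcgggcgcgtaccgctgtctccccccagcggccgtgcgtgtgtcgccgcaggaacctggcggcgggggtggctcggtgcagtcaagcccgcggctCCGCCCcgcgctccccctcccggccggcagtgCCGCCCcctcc
Ube2c: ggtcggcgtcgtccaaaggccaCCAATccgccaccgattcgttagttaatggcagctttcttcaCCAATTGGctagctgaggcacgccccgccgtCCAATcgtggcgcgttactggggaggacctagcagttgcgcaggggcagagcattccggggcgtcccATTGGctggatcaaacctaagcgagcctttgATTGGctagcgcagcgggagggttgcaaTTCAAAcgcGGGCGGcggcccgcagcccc
The Uchl1 window had a GC content of 48.8% and none of the 6 motifs. The Ube2ql1 window had a GC content of 70.4% and 2 matches to GGGCGG, the GC box letters. The Ube2c window held 6 matches to CCAAT counted over both strands, a pair of which overlap in a palindrome. It also held 1 match to TTTGAA, the letters of the cell cycle genes homology region, 29 bases before the start, and 1 to GGGCGG. Of 77 member genes with a promoter entry, 19 (24.7%) held CCAAT, 8 (10.4%) TTTGAA and 50 (64.9%) GGGCGG. A further 3 motifs were held by 3 (3.9%, TATAAA), 8 (10.4%, CACGTG) and 2 (2.6%, TGACGTCA). The GC content of the member promoters as a set is not given here. Among all 27025 promoters of this length, 34.5% held CCAAT, 16.3% TTTGAA, 32.9% GGGCGG, 13.0% TATAAA, 6.05% CACGTG and 1.62% TGACGTCA. A match describes letters in this window and is not a measured binding site.

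The tissue comparison rests on how the brain arrays are scaled. Centring each brain array on the kidney array multiplied brain signals by 1.79 on 430A and divided them by 4.24 on 430B. Carrying the 430A scale over to 430B through the 100 probe sets on both arrays divides 430B brain signals by 1.40 instead, a difference of 3.03-fold (1.60 on the log2 scale). The log2 differences of the 98 shared probe sets above the median had an SD of 0.25. Both scales are given for the called genes read on 430B. Array type and tissue cannot be told apart, because no tissue was read on the other tissue's sense arrays. Signals are printed as deposited, and folds are after centring and after raising low signals to a floor of 186.4 on 430A and 28.6 on 430B in units of the kidney array. A fold is written as "at least" where the lower tissue was below that floor, or below the 430B floor of 86.7 on the 430A scale. A gene is read from its probe set of highest rank and counted as higher in a tissue from 2-fold.

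Across the 98 genes, the share called in brain was close to that among all genes, while the share called in kidney was close to it or below it, depending on the scaling. Either tissue gave a signal above the floor for 86 of the 98. Brain was higher for 16 of them (18.6%) and kidney for 23 (26.7%), and 47 differed by less than 2-fold. The background over 12913 genes was 18.2% higher in brain and 26.4% in kidney, so both shares were near it under this scaling. On the log2 scale the median of brain over kidney was 0.058 for the members and -0.084 for all genes. With 430B on the 430A scale, 24 of 84 members (28.6%) were higher in brain and 7 (8.33%) were higher in kidney, against 26.6% and 15.7% of all genes. With signals as deposited, 16 (19.3%) were higher in brain and 15 (18.1%) were higher in kidney, against 24.2% and 26.6% of all genes. After quantile normalization the members' shares were 17.2% and 14.9%, against 19.6% and 23.1% of all genes. All 16 kidney calls read on 430B were lost with 430B on the 430A scale, while the 7 kidney calls read on 430A do not depend on the scale of 430B. In all, 14 of the 39 calls, 7 in brain and 7 in kidney, were also made in each of 3 other scalings (430B on the 430A scale, signals as deposited, and quantile normalization). For Ube2ql1 and Usp25, read on 430B, kidney was below the floor on the 430A scale and as deposited. Their ratios there are the brain signal over its own array's median, the same in both settings (log2 3.65 and 1.61). For these genes both settings are therefore not separate checks.

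**Figure D1:**
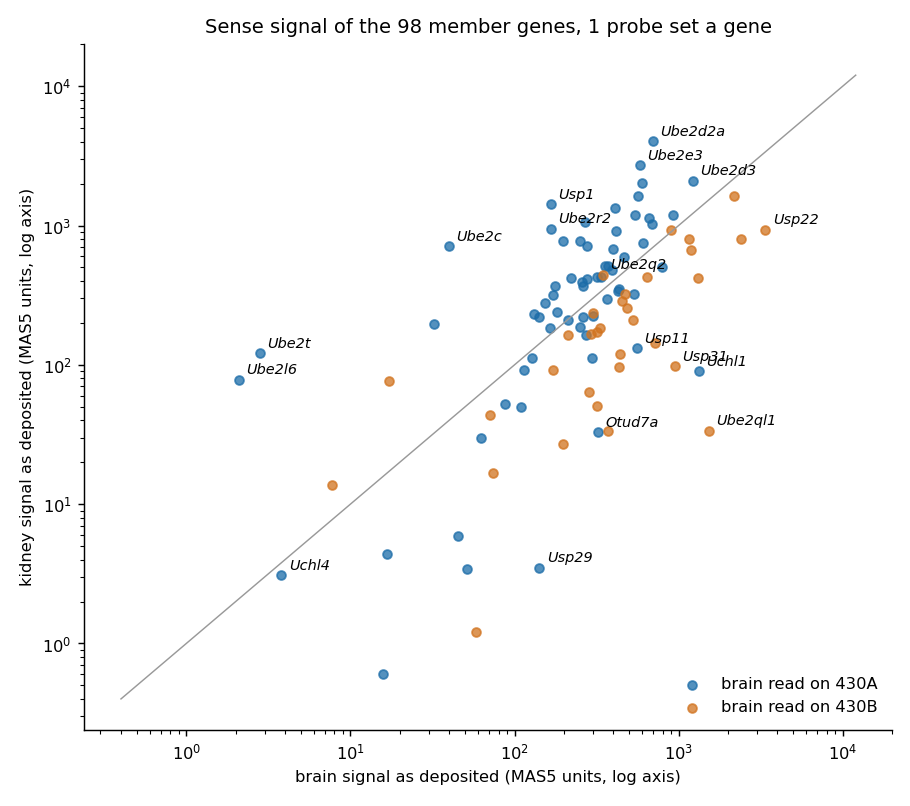
Sense signal of the 98 member genes in brain (x axis) and kidney (y axis), both as deposited in MAS5 units on log axes, with 1 point for each gene coloured by the array that read it in brain. The line marks equal signals. Uchl1 (1327.5 in brain, 89.7 in kidney) and Ube2ql1 (1521.4 in brain, 33.6 in kidney) lie far to the brain side, and Ube2c (39.8 in brain, 708.9 in kidney) and Usp1 (166.6 in brain, 1416.7 in kidney) to the kidney side.

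In brain, the widest differences belonged to Uchl1 and Ube2ql1. Uchl1, an abundant neuronal ubiquitin hydrolase, gave 1327.5 in brain and 89.7 in kidney, which is at least 12.8-fold higher. Ube2ql1, a conjugating enzyme related to Ube2q1, read 1521.4 in brain and 33.6 in kidney, 10.7-fold higher and at least 12.5-fold on the 430A scale. Usp11, a protease linked to DNA repair, gave 556.2 in brain and 131.8 in kidney, which is at least 5.35-fold higher. All 3 stayed above 2-fold when the floor was raised to the 75th percentile, at log2 ratios of 2.37 for Uchl1, 2.52 for Ube2ql1 and 1.12 for Usp11. With the 430A floor applied to 430B, Ube2ql1 was 1.92-fold higher and all 3 brain calls read on 430B were lost.

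A further 4 brain calls were made in every scaling, but not under every floor. With the floor at the 75th percentile Otud7a was 1.26-fold, Ube2o 1.16-fold and Usp25 1.40-fold higher, and with the 430A floor on 430B Usp31 was 1.20-fold higher and Usp25 was below the floor, so these calls were lost there. Otud7a, which cuts Lys11-linked chains, gave 322.5 in brain and 33.0 in kidney, which is at least 3.10-fold higher. Ube2o, a large enzyme that combines E2 and E3 activity, gave 296.3 in brain and 112.0 in kidney, which is at least 2.85-fold higher. Usp31 was higher in brain by all 3 of its probe sets above the floor. Its leading one read 951.2 in brain and 97.7 in kidney, 2.30-fold higher and 6.94-fold on the 430A scale. Usp25 depended on the probe set. The one of highest rank, on 430B, read 370.6 in brain and 33.7 in kidney, 2.59-fold higher (at least 3.05-fold on the 430A scale), while the one on 430A gave 74.7 in brain and 397.7 in kidney, which is at least 2.13-fold lower in brain.

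The other 9 brain calls, all read on 430A, lay between 2-fold and 3-fold and were lost in at least 1 other scaling. Usp48, a nuclear protease, read 534.5 in brain and 320.1 in kidney, 2.99-fold higher, and its second probe set above the floor was also called at 301.6 in brain and 270.0 in kidney. Usp5, which takes free ubiquitin chains apart, read 792.1 in brain and 501.7 in kidney, 2.83-fold higher. Otud5, a brake on interferon responses, gave 273.2 in brain and 164.0 in kidney, which is at least 2.63-fold higher. It was called in 1 of its 3 probe sets above the floor, and the one on 430B had a log2 ratio of -0.84. The endoplasmic reticulum protease Usp19 was 2.42-fold higher in brain, at 301.7 in brain and 223.0 in kidney. Usp45, which acts in DNA repair, was also 2.42-fold higher, at 251.7 in brain and 186.5 in kidney. Usp9x, the X-linked relative of the fly gene fat facets, read 426.2 in brain and 339.2 in kidney, 2.25-fold higher. It was called in 1 of its 4 probe sets above the floor, and Usp19 and Usp45 each in 1 of 2. Usp14, which trims ubiquitin from proteins docked at the proteasome, read 430.8 in brain and 349.6 in kidney, 2.21-fold higher, and was called in 2 of its 4 probe sets. Ube2w, an E2 that modifies protein amino termini, was 2.20-fold higher at 367.5 in brain and 299.3 in kidney, but its second probe set on 430A was called the other way at 77.9 in brain and 388.0 in kidney. Usp20, which acts on adrenergic receptors, was 2.11-fold higher at 261.6 in brain and 221.9 in kidney. For all 9 the deposited brain and kidney signals lay within 2-fold of each other, so the calls rest on the centring factor of 1.79.

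In kidney, the 7 calls read on 430A held in every scaling, and 5 of them were E2s. With the floor at the 75th percentile Ube2c was 1.54-fold and Usp10 1.69-fold lower in brain, and these calls were lost. Usp1, which removes ubiquitin from PCNA and the Fanconi protein Fancd2, read 166.6 in brain and 1416.7 in kidney, 4.75-fold lower in brain. Both of its probe sets above the floor were called, the second at 60.2 in brain and 408.1 in kidney. Ube2c, the E2 that starts chains for the anaphase-promoting complex, gave 39.8 in brain and 708.9 in kidney, which is at least 3.80-fold lower in brain. Ube2s, which extends those chains, lay just under 2-fold in the same direction (600.7 in brain, 2021.0 in kidney, log2 ratio -0.91).

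The broad E2 Ube2d2a read 695.0 in brain and 4038.0 in kidney, 3.24-fold lower in brain, and the kidney signal was the highest of the 98 genes there. That reading came from a probe set with a suffix mark, which flags possible matches to several transcripts, of the same gene or of others. The other 3 Ube2d2a probe sets above the floor had log2 ratios of 0.64, 0.24 and 0.069. Ube2r2, a partner of the cullin-RING ligases, read 166.5 in brain and 950.7 in kidney, 3.19-fold lower in brain, again from a marked probe set. Its other probe set, on 430B, had a log2 ratio of -0.70, or 0.90 on the 430A scale. Ube2e3 read 579.9 in brain and 2722.7 in kidney, 2.62-fold lower in brain. Ube2a, a Rad6 homologue of DNA damage tolerance, read 267.8 in brain and 1054.9 in kidney, 2.20-fold lower in brain, and its second probe set was level at a log2 ratio of -0.085. Usp10, which acts on p53 and on endocytosed channels, read 197.0 in brain and 773.9 in kidney, 2.19-fold lower in brain.

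None of the 16 kidney calls read on 430B was made on the 430A scale or with signals as deposited, and 6 were made after quantile normalization (Ube2q2, Ube2cbp, Otud1, Otud7b, Usp28 and Ube2h). Ube2q2 was the widest, at 347.8 in brain and 444.0 in kidney, 5.42-fold lower in brain and 1.79-fold on the 430A scale. Ube2h, the E2 of the CTLH ligase, read 899.4 in brain and 932.9 in kidney, 4.40-fold lower in brain and 1.45-fold on the 430A scale. That reading came from a marked probe set. The other Ube2h probe sets were not called, with log2 ratios of 0.37 and 0.79 on 430A and -0.86 on 430B. Otud7b, a Lys11-chain protease, was 3.31-fold lower in brain and Otud1 3.29-fold, and both were 1.09-fold lower on the 430A scale. Ube2v1, the partner of Ube2n in making Lys63 chains, read 2178.1 in brain and 1630.2 in kidney, 3.17-fold lower in brain and 1.05-fold on the 430A scale. The p53 regulator Usp7 read 1157.6 in brain and 794.8 in kidney, 2.91-fold lower in brain but 1.04-fold higher on the 430A scale. Ube2v1 and Usp7 were also read from marked probe sets, and on 430A their log2 ratios were 0.52 and 0.26. Usp24 was 2.88-fold and Usp42 2.84-fold lower in brain, and on the 430A scale they were 1.05-fold and 1.06-fold higher. Ube2cbp read 17.2 in brain and 77.0 in kidney, which is at least 2.69-fold lower in brain, and was below the floor in both tissues on the 430A scale. The other 7 (Usp6nl, Usp40, Ube2q1, the mitochondrial Usp30, Usp28, Usp37 and the histone protease Usp3) were between 2.25-fold and 2.70-fold lower in brain. These 7 were higher in brain by less than 2-fold on the 430A scale.

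**Figure D2:**
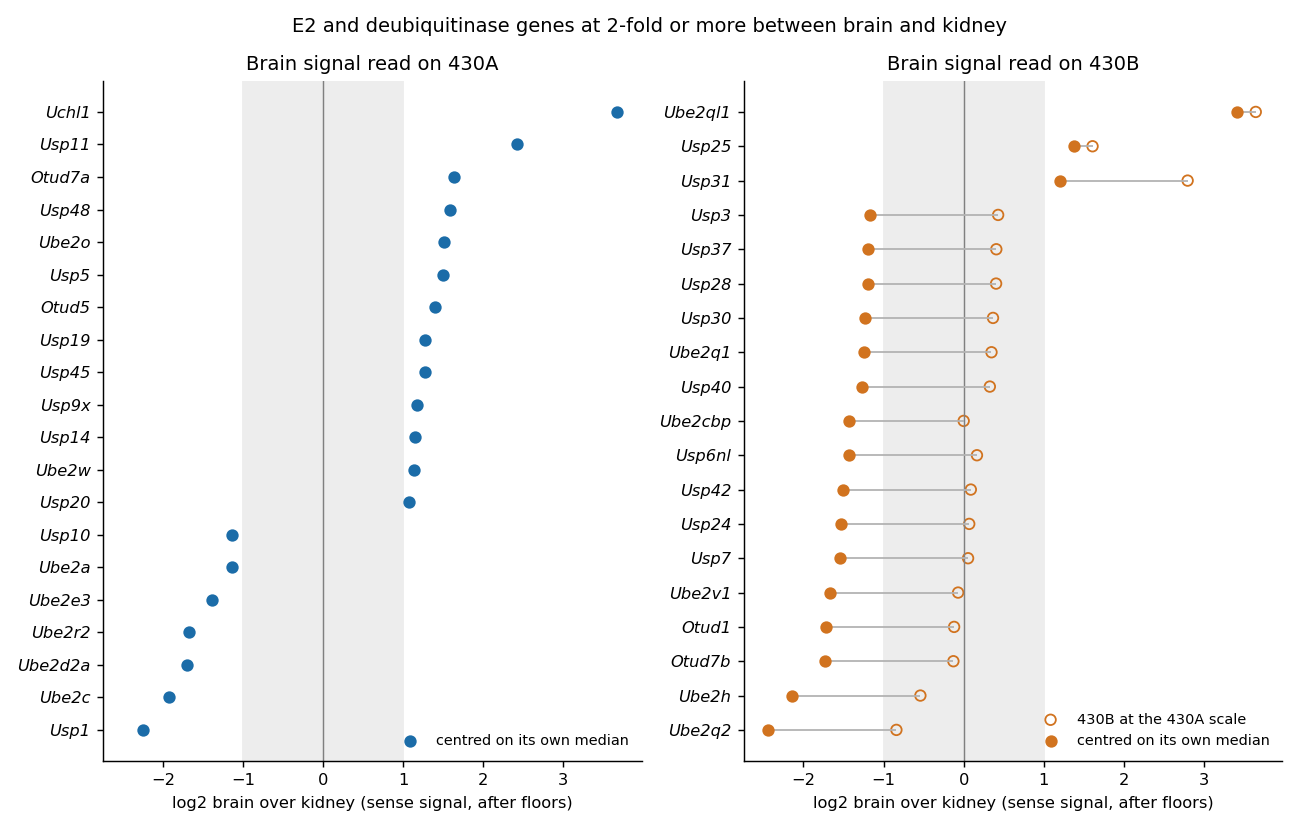
Log2 ratio of brain over kidney sense signal (x axis) for the 39 member genes at 2-fold or more, with genes read on 430A on the left and on 430B on the right. Filled points are centred on the array's own median, open points use the 430A scale, and the grey band is less than 2-fold. The 3 brain calls on the right keep their side on both scales, from Usp31 (1.20 and 2.80) to Ube2ql1 (3.42 and 3.65), while all 16 kidney calls on the right move into the band, where Ube2cbp is below the floor in both tissues. The open points of Ube2ql1 and Usp25 are lower bounds, with kidney below a floor of 86.7 set by the brain array's own median.

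Another 8 genes would be called higher in brain with 430B on the 430A scale. They were Usp54 (log2 ratio 1.82), Usp15 (1.67), Ube2d-ps (1.38), Usp53 (1.38), Usp22 (1.37), Usp27x (1.23), Usp46 (1.15) and Usp32 (1.11). The values of Usp53 and Usp27x are lower bounds, because kidney was below the floor on that scale. Under the centring used here the log2 ratios of the 8 genes ran from -0.49 for Usp32 to 0.56 for Usp53. The calls nearest to 2-fold were Usp20 (1.08) and Ube2w (1.14) on the brain side, with Otub1 (0.86) and Usp13 (0.71) just short of it. On the kidney side they were Usp10 (-1.13) and Ube2a (-1.14), with Ube2s (-0.91) and Ube2k (-0.86) just short.

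The scale of 430B plays no part among genes read on 430A. There E2s were called in kidney about as often as all genes and in brain less often, under this centring and as deposited. Deubiquitinases were called in kidney less often than all genes, and in brain more often except with signals as deposited. Of 22 E2s above the floor, 2 (9.09%) had more signal in brain and 5 (22.7%) more in kidney, and the E2 median on the log2 scale was -0.00013. Of 34 deubiquitinases, 11 (32.4%) were higher in brain and 2 (5.88%) in kidney, and their median log2 ratio was 0.44. Among all 7418 genes read on 430A, 19.2% were higher in brain and 20.2% in kidney, with a median of 0.039. The E2 median minus the deubiquitinase median was -0.44. With signals as deposited 1 of 23 E2s was called in brain and 10 in kidney, and 3 of 32 deubiquitinases in brain and 5 in kidney, where the background was 10.2% in brain and 40.5% in kidney. The median difference was -0.46 with signals as deposited, -0.46 after quantile normalization, -0.32 with the floor at the 75th percentile and -1.10 without a floor. No test of this difference was possible with 1 array for each tissue, and the classes were compared with the values in view.

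On 430B both classes were called more often in kidney than in brain, as were all genes read there, and this was lost on the 430A scale. There the 6 E2s gave 1 brain call and 4 kidney calls, and the 21 deubiquitinases gave 2 brain calls and 10 kidney calls, with median log2 ratios of -1.46 for E2s and -0.76 for deubiquitinases. The background on 430B was 16.9% higher in brain and 34.7% in kidney. On the 430A scale 1 of 5 E2s and 9 of 21 deubiquitinases were higher in brain and no member of either class in kidney, where the background was 37.4% in brain and 9.06% in kidney and the medians were -0.069 and 0.71.

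The 10 members of highest percentile in brain were Usp22, Usp32, Ube2v1, Ube2ql1, Usp46, Ube2q1, Usp7, Uchl1, Ube2d3 and Usp31, of which 6 were deubiquitinases and 4 E2s. In kidney they were Ube2d2a, Ube2e3, Ube2d3, Ube2s, Ube2v1, Ube2e1, Usp1, Ube2k, Ube2g1 and Ube2n, of which 9 were E2s and 1 a deubiquitinase. Ube2v1 and Ube2d3 were on both lists. Of the brain entries 8 were read on 430B, and of the kidney entries 9 are genes read on 430A in brain. Brain percentiles were taken within each of 2 arrays and kidney percentiles within a single array, so the makeup of the lists and the array cannot be told apart. Ranks of different probe sets also carry their binding strength, so they do not order the amounts of the transcripts.

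By role, the broad E2s were called about as often as all genes under this centring, where the background was 18.2% in brain and 26.4% in kidney. Of 12 broad E2s 11 were above the floor, with a median log2 ratio of -0.30. Brain was higher for 2 (18.2%, Ube2o and Ube2w) and kidney for 3 (27.3%, Ube2h, Ube2d2a and Ube2e3). Ube2d3, the most even of the bright ones, read 1218.4 in brain and 2100.4 in kidney (log2 ratio 0.056). Ube2e1 read 568.3 in brain and 1625.5 in kidney (-0.67), and Ube2z 415.7 in brain and 914.6 in kidney (-0.30). The second Ube2e1 probe set, on 430B, was called in brain on either scale, at 339.8 in brain and 30.7 in kidney (1.38). The E2s of quality control and Lys48 chains, the usual signal for the proteasome, had 1 of 9 higher in brain (Ube2ql1) and 3 in kidney (Ube2q2, Ube2r2 and Ube2q1), with a median of -0.30. Ube2r2 was the single kidney call with 430B on the 430A scale, where 15.7% of all genes were called in kidney. Ube2k, which builds Lys48 chains, read 408.7 in brain and 1326.1 in kidney (-0.86) by its leading probe set. Its probe set above the floor on 430B was called in brain on either scale, at 278.7 in brain and 30 in kidney (1.13). A further Ube2k probe set on 430A had a log2 ratio of 0.30. Ube2g1, an E2 of endoplasmic reticulum degradation, read 543.4 in brain and 1196.4 in kidney (-0.30).

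The E2s of the cell cycle and DNA repair had a median of -0.91, the lowest of the enzyme roles under this centring. It was -0.069 on the 430A scale, where the broad E2s were lower at -0.12, and -0.62 as deposited, where the quality control E2s were lower at -0.78. Of 7 above the floor none was higher in brain, where 18.2% of all genes were. Kidney was higher for 3 (Ube2c, Ube2v1 and Ube2a), where 26.4% of all genes were, and for 2 on the 430A scale, where 15.7% were. Not all leaned that way: Ube2n, which makes Lys63 chains, read 922.6 in brain and 1185.2 in kidney (0.48), and Ube2b, the other Rad6 homologue, 664.1 in brain and 1124.9 in kidney (0.081). Ube2t, of the Fanconi pathway, was below the floor by its leading probe set at 2.8 in brain and 121.3 in kidney, and its probe set on 430B was just above the floor in kidney (26.9 in brain, 32.1 in kidney). Of the E2s of ubiquitin-like proteins, Ube2f, which carries Nedd8, read 257.2 in brain and 392.4 in kidney (0.23). Ube2l6, which carries the interferon-induced Isg15, was below the floor at 2.1 in brain and 78.2 in kidney.

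**Figure D3:**
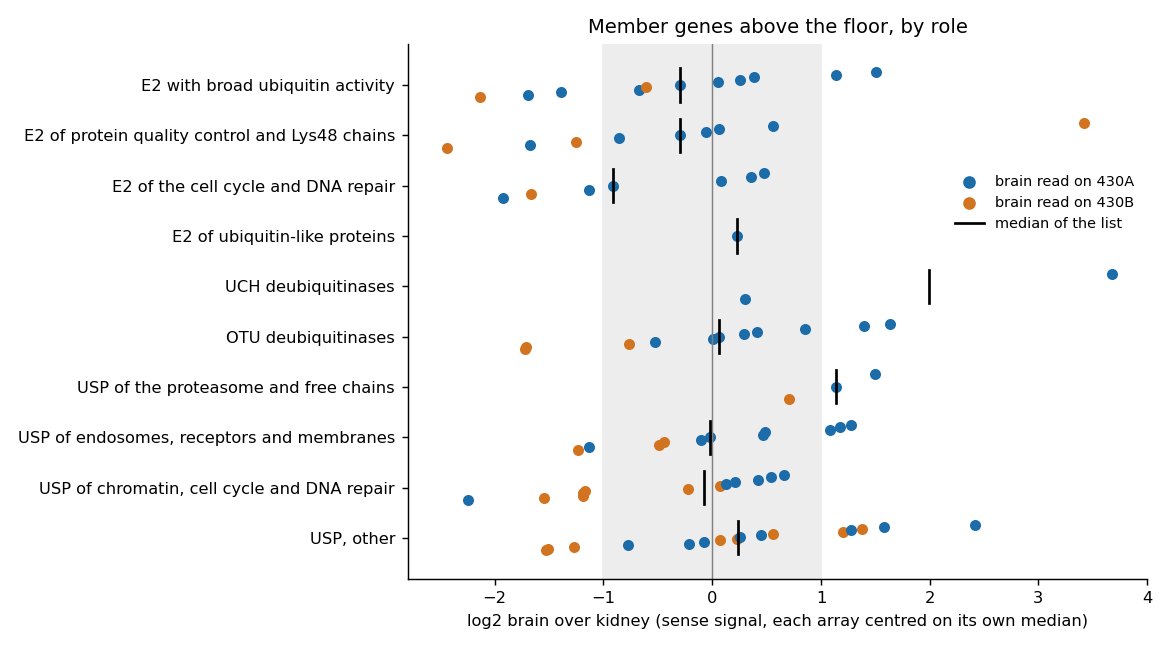
Log2 ratio of brain over kidney sense signal (x axis) for the member genes above the floor, grouped by role (y axis), with 1 point for each gene coloured by its brain array and a black bar at each list's median. The grey band is less than 2-fold. Of the roles drawn, the E2s of the cell cycle and DNA repair have the lowest median under this centring (-0.91, but -0.069 on the 430A scale), and the UCH enzymes (1.99, 2 genes) and the USPs of the proteasome and free chains (1.14, 3 genes) the highest.

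Of the UCH enzymes, Uchl1 was the brain gene described above. Uchl5, which sits on the proteasome, was even at 353.6 in brain and 513.1 in kidney (log2 ratio 0.30). Uchl4 was below the floor at 3.8 in brain and 3.1 in kidney.

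The 11 OTU enzymes were all above the floor, with 2 higher in brain (Otud7a and Otud5), 2 in kidney (Otud7b and Otud1, neither of them on the 430A scale) and a median of 0.065. These are 18.2% in each direction, against 18.2% of all genes in brain and 26.4% in kidney. Otub1, which also blocks E2s directly, was close to 2-fold by its leading probe set (212.9 in brain, 210.7 in kidney, log2 ratio 0.86) and leaned the other way by its second (91.0 in brain, 316.2 in kidney, -0.76). Otub2 read 108.8 in brain and 49.9 in kidney, close to the floor (0.065). Otud4 read 276.9 in brain and 714.1 in kidney (-0.53), and Otud6b 319.8 in brain and 429.9 in kidney (0.41). The other Otud4 probe sets had log2 ratios of 0.85 on 430A and 1.65 on 430B, both lower bounds. The one on 430B was called in brain on either scale. Otulin, which cuts linear chains, read 130.7 in brain and 233.2 in kidney (0.0061), and its inactive relative Otulinl 127.0 in brain and 112.8 in kidney (0.29). Otud3, read on 430B, gave 529.5 in brain and 211.5 in kidney, a log2 ratio of -0.76, or 0.84 on the 430A scale.

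The USPs of the proteasome and free chains leaned to brain under this centring, with 2 of 3 called (Usp5 and Usp14), where 18.2% of all genes were. With signals as deposited 0 of 3 were called in brain, where 24.2% of all genes were. With the floor at the 75th percentile 1 of 2 was called, where 12.6% of all genes were. The gene not called, Usp13, a relative of Usp5, read 198.6 in brain and 27.0 in kidney on 430B. Kidney was below the floor on either scale, so its log2 ratio of 0.71 is a lower bound that this scaling leaves unchanged. Of the 11 USPs of endosomes, receptors and membranes above the floor, 3 were higher in brain (Usp19, Usp9x and Usp20) and 2 in kidney (Usp30 and Usp10), with a median of -0.024. With the 430A scale this became 5 in brain and 1 in kidney. Among all genes 18.2% were called in brain and 26.4% in kidney, and 26.6% and 15.7% with the 430A scale. Usp46, which acts with Wdr48 and is linked to synaptic receptors, read 1304.5 in brain and 419.0 in kidney (-0.45, or 1.15 on the 430A scale). Usp32 read 2405.8 in brain and 796.4 in kidney (-0.49, or 1.11), and Usp2, a clock-controlled protease, 461.9 in brain and 597.6 in kidney (0.47).

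Of 12 USPs of chromatin, the cell cycle and DNA repair above the floor, none was higher in brain and 5 were higher in kidney (Usp1, Usp7, Usp28, Usp37 and Usp3). Among all genes 18.2% were called in brain and 26.4% in kidney. All of the 5 but Usp1 were read on 430B, where 34.7% of all genes were called in kidney. Usp1 was the single kidney call on the 430A scale, where 2 were higher in brain. The background on that scale was 15.7% in kidney and 26.6% in brain. Usp22, the protease of the SAGA coactivator, had the highest rank of any member in brain, at 3382.5 in brain and 932.4 in kidney on 430B (-0.23, or 1.37 on the 430A scale). Its probe set on 430A gave 415.4 in brain and 42.2 in kidney, which is at least 3.99-fold higher in brain. Usp47 read 609.4 in brain and 751.8 in kidney (0.54). Among the remaining USPs, 5 of 16 above the floor were higher in brain and 3 in kidney, 8 and none on the 430A scale. The splicing factor Usp39, which lacks protease activity, read 251.5 in brain and 772.2 in kidney (-0.78), and Usp34 684.7 in brain and 1030.1 in kidney (0.25). Usp29, a gene known for imprinting, gave 142.0 in brain and 3.5 in kidney, which is at least 1.37-fold higher in brain.

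By the probe set that stands for each gene, 12 members were below the floor in both tissues. Among them Usp18, which removes Isg15, read 62.3 in brain and 30 in kidney. The Y-linked Usp9y read 45.4 in brain and 5.9 in kidney, and Usp26, known from testis, 16.8 in brain and 4.4 in kidney. Usp17la, Usp43, Usp44, Usp50, Usp46os2 and Ube2d2b were the others beside Ube2t, Ube2l6 and Uchl4. A signal below the floor is not a sign that the transcript was absent.

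Probe sets of the same gene often differed. Of 55 members with more than 1 probe set above the floor, 29 spanned 2-fold or more between them, with a median span of 1.04 on the log2 scale, and 5 were called in both directions. Over all 26718 sense probe sets above the floor, 19.2% were called in brain and 22.4% in kidney, which is a share of single probe sets and not of spans. Spans over all genes are not given here, so whether members differ from other genes in this cannot be told. Otud7b had the widest span, 3.44, from a 430A set at 252.4 in brain and 179.2 in kidney (log2 ratio 1.28) to a 430B set at 238.6 in brain and 250.9 in kidney (-2.16, or -0.56 on the 430A scale). Usp15 spanned 3.15, Ube2h 2.93, Ube2d3 2.88, Usp7 2.81 and Usp40 2.71. Ube2d3 spanned its range within 1 array. Its 7 probe sets were all on 430A, with 2 higher in brain (701.5 in brain, 462.6 in kidney for the brighter) and 1 in kidney (404.7 in brain, 1854.2 in kidney). For 16 members above the floor in both tissues on both arrays, the 430B log2 ratio minus the 430A one had a median of -0.040 under the centring used here and 1.22 on the 430A scale. For 805 genes of that kind the medians were -0.61 and 0.55.

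Under the centring used here, genes of the same pathway outside the members gave shares like those of all genes. They were 18.8% in brain and 26.6% in kidney, against 18.2% and 26.4%. Of 79 listed E1s, ubiquitin genes, other E2s, other deubiquitinases, SUMO proteases and deubiquitinase cofactors, 67 were measured and 64 were above the floor, with 12 higher in brain and 17 in kidney. With the 430A scale these counts were 16 and 9 (25.4% and 14.3%, against 26.6% and 15.7% of all genes). After quantile normalization the shares were 16.9% in brain and 15.4% in kidney, against 19.6% and 23.1% of all genes. With signals as deposited they were 19.0% and 27.0%, against 24.2% and 26.6%. Under this centring the largest brain ratios were those of Josd2, a Josephin protease (467.2 in brain, 185.5 in kidney, which is at least 4.49-fold), and Desi1, a desumoylating isopeptidase (794.1 in brain, 360.6 in kidney, 3.95-fold). Atxn7l3, an activating partner of Usp22, was 3.65-fold higher in brain (1017.3 in brain, 499.4 in kidney), and Zranb1 at least 3.39-fold (352.7 in brain, 151.2 in kidney). On the 430A scale Brcc3, a Lys63-chain protease read on 430B, went further, at 865.7 in brain and 93.3 in kidney, 6.62-fold higher there and 2.19-fold under the centring used here. The largest kidney ratio was that of Gmps, a nucleotide enzyme that binds Usp7. It read 370.5 in brain and 873.8 in kidney, a log2 ratio of -3.32 and of -1.73 on the 430A scale. Senp7, Atxn3 and Vcpip1, all read on 430B, were 4.90-fold, 4.31-fold and 3.27-fold lower in brain and within 2-fold on the 430A scale. Wdr48, the activating partner of Usp1, stood on the other side from Usp1 itself, at 275.1 in brain and 227.2 in kidney, 2.17-fold higher in brain, a call lost with signals as deposited and after quantile normalization.

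Antisense signal was examined for the 22 members with a reverse probe set. A reverse probe set pairs with RNA running opposite to the transcript it was designed for, and its orientation here rests on the manufacturer's mask. Of 23 member probe sets, 8 were above the floor (63.5 on U74A and 98.5 on U74B) in at least 1 tissue, where 30.2% of all 5652 were. A single probe set was called in each direction. The background among 1706 reverse probe sets above the floor was 20.5% higher in brain and 5.28% in kidney. It was 28.8% and 3.73% on U74A, which held both calls, and 14.3% and 6.41% on U74B. The 8 had a median log2 ratio of 0.31, and all those above the floor one of 0.33.

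The reverse probe set of Usp47, which acts on DNA polymerase beta, was the brightest, at 505.2 in brain and 326.4 in kidney, 1.55-fold higher in brain. That of Usp1 followed with 419.8 in brain and 178.7 in kidney, 2.35-fold higher in brain. This call was lost after median centring (1.63-fold) and quantile normalization (1.20-fold). That of Ube2d2a, with a suffix mark, was the single kidney call, at 40.5 in brain and 160.4 in kidney, which is at least 2.53-fold lower in brain. It kept its direction after median centring (log2 ratio -1.87) and quantile normalization (-2.15). The other 5 above the floor differed by less than 2-fold once low signals were raised to it. They were Usp25 (127.5 in brain, 72.5 in kidney), Usp22 (121.9 in brain, 21.0 in kidney), Ube2d-ps (115.2 in brain, 123.9 in kidney), Ube2v1 (79.1 in brain, 58.4 in kidney) and Ube2z (69.7 in brain, 23.5 in kidney). Of the probe sets below the floor, Usp37 came closest, at 11.3 in brain and 95.7 in kidney, then Otub2 at 84.2 in brain and 35.8 in kidney and Usp11 at 74.7 in brain and 10.5 in kidney.

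**Figure D4:**
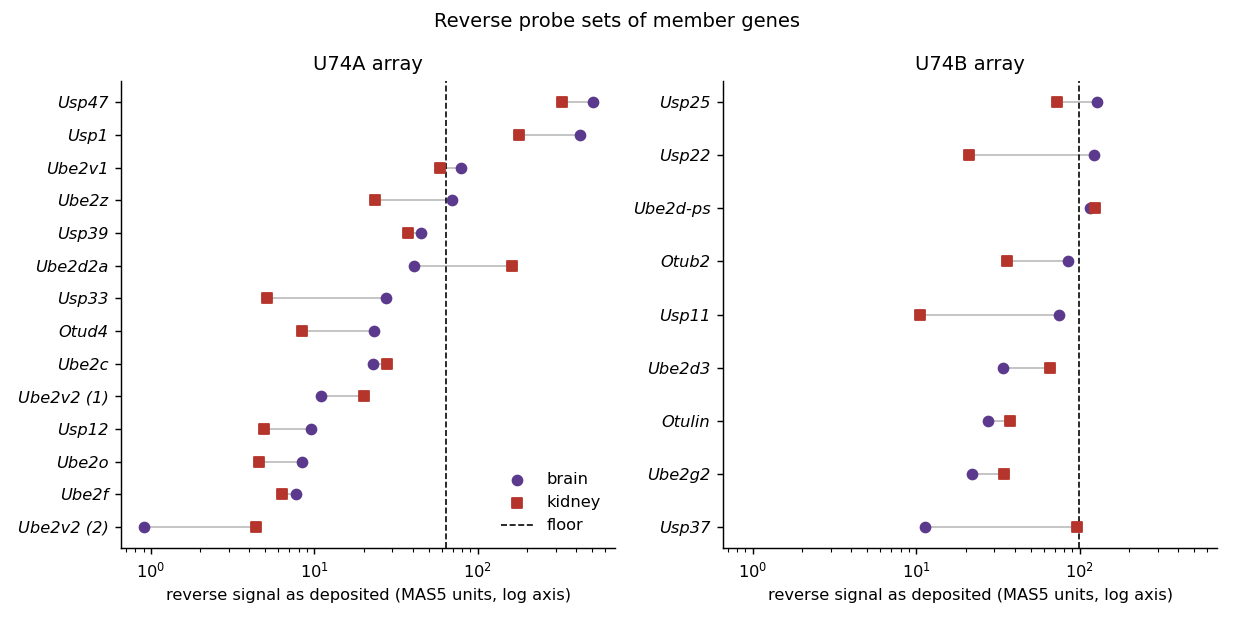
Reverse signal of the 23 member probe sets in brain (circles) and kidney (squares), as deposited in MAS5 units on a log x axis, for U74A on the left and U74B on the right, with the floor as a dashed line. Usp47 (505.2 in brain, 326.4 in kidney) and Usp1 (419.8 in brain, 178.7 in kidney) are the 2 brightest, and 15 probe sets stay below the floor in both tissues.

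Some of these loci overlap other annotated genes in the RefSeq annotation. On the opposite strand Usp37 overlaps Vil1, Cnot9 and Plcd4, Ube2d3 overlaps 4930539J05Rik, Ube2v1 overlaps Gm11476, Otud4 overlaps Gm51579 and Ube2d-ps overlaps Urgcp. Usp47 overlaps Gm3960, Usp22 overlaps Tnfrsf13b, and Ube2g2 overlaps Gm46236 and Mir1930, with the relation of the strands not resolved here. No overlapping gene was annotated for Usp1, Ube2d2a, Ube2z or Usp25. Whether the reverse signals come from these neighbours was not tested.

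The level of each strand was compared within a tissue by percentile, since reverse and sense probes sit on different arrays. In brain the reverse percentile minus the sense percentile had a median of -19.3 over 22 members and -11.1 over all 2830 genes with both, and reverse ranked above sense for 4 of 22 members, against 38.4% of all genes. In kidney the medians were -30.4 for members and -17.1 for all genes, and reverse ranked higher for 5 of 22 members, against 29.3% of all genes. For 14 of the 22 genes the reverse signal was below the floor in both tissues, so single gaps of those genes carry no order. Among genes above the floor on both strands, reverse ranked higher for Usp47 in both tissues (by 7.6 points in brain and 7.7 in kidney) and for Ube2d-ps in kidney (15.4). Usp1, above the floor on both strands too, ranked higher on the reverse strand by 34.1 points in brain and 2.0 in kidney. The other genes that ranked higher had a reverse signal below the floor in that tissue, namely Ube2c and Otub2 in brain and Usp25 and Usp37 in kidney.

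The widest gaps the other way ran from -56.1 to -31.1 in brain (Usp37, Ube2o, Ube2f, Ube2d3, Ube2v2 and Usp12) and from -64.3 to -53.0 in kidney (Usp33, Usp22, Usp12, Otud4, Ube2f and Usp11). All of these had a reverse signal below the floor in that tissue. Usp1 was the one member called on both strands in opposite tissues, with the reverse signal 2.35-fold higher and the sense signal 4.75-fold lower in brain. For Ube2d2a the reverse and the sense signal were both called in kidney, each from a marked probe set.

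**Figure D5:**
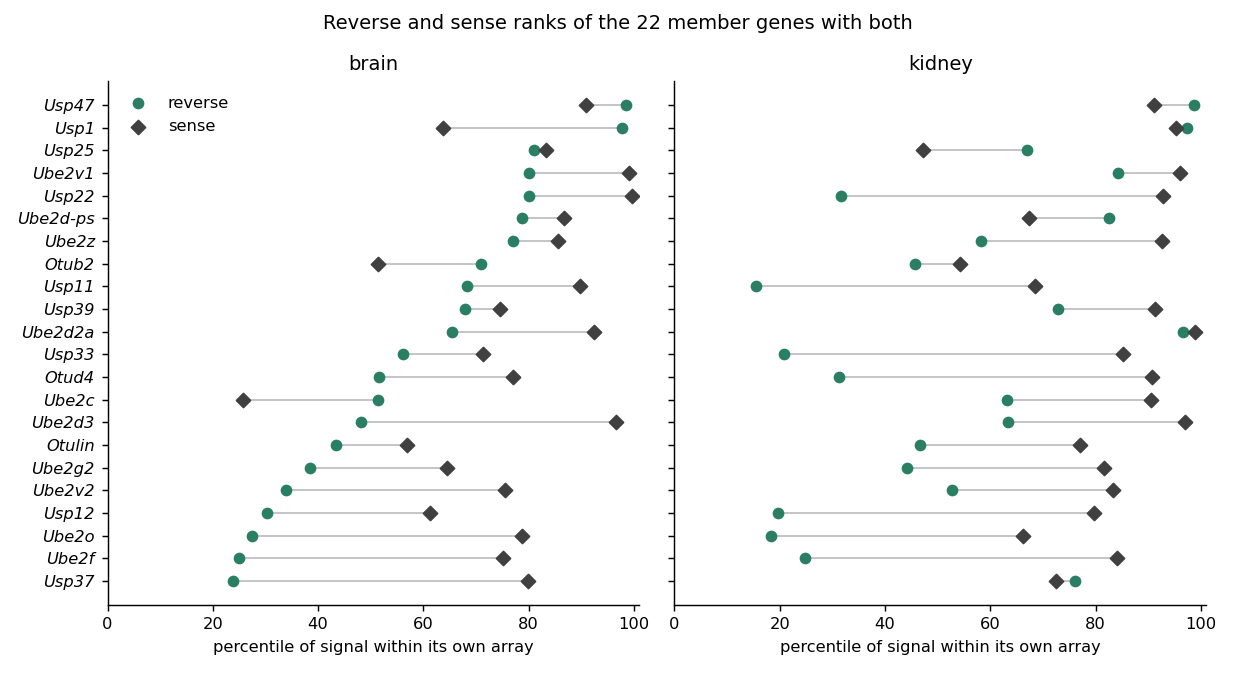
Percentile of the reverse signal (circles) and of the sense signal (diamonds) within its own array (x axis) for the 22 member genes with both, brain on the left and kidney on the right. The reverse point lies left of the sense point for all but 4 genes in brain and 5 in kidney, and Usp1 has the largest gap the other way in brain (34.1 points).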

How the data were processed

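The authors deposited MAS5 signals, which are linear intensity values, as the submitters' processing notes state. U74 values cover the probe sets marked as reverse by the Affymetrix mask, per the labels. No detection calls or scaling targets were used. Median deposited signals were 104 and 121.5 on the brain 430A and 430B arrays and 38.8 on the kidney array, and 18.3 to 42.2 on the U74 arrays. Gene names come from the platform annotation, and 97 of 98 member symbols matched RefSeq GRCm38.p6. The 9 probe sets with several symbols were left out.

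Brain sense arrays were centred through the probe sets brighter than the median on both arrays of a pair, by subtracting their median log2 ratio of -0.84 (430A) or 2.08 (430B). As floor, sense pairs took the larger of their medians once centred, and reverse pairs, left uncentred, the larger of their 75th percentiles. Calls were made at 2-fold and above the floor in at least 1 tissue. Shared probe sets were used from 430A. Promoters are RefSeq's. With 1 array per group no test was run and the samples gave no replicate error. Alternatives changed the scaling, the floor, the array, the suffix marks and the choice of probe set. The calling step was tested on simulated data. Python 3.11.15 with pandas 2.3.3, numpy 2.4.6 and matplotlib 3.10.9 was used.

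The members, the role and pathway lists, the markers and the naming rule (the 12 largest calls each way, the 10 highest ranks, reverse members above the floor, the 6 largest strand gaps, all UCH and OTU members, called members of each role, the 6 widest probe-set spans and the members nearest to 2-fold) were chosen with earlier results of these data known. Genes on the second scale, those below the floor, Wdr48 and Brcc3 were named after their values were seen.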

Additional observations from a re-analysis of the deposited data

Results flagged for a closer look

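Usp1 had opposite tissue directions on its strands. The reverse signal had a log2 ratio of brain over kidney of 1.23 (419.8 in brain, 178.7 in kidney) and the sense signal one of -2.25 (166.6 in brain, 1416.7 in kidney). With 1 array for each tissue and strand, this difference was not tested. The reverse ratio was 1.63-fold after median centring and 1.20-fold after quantile normalization, both below the call, while the sense ratio was called in every scaling.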

How the results depend on the processing

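With 430B on the 430A scale, sense calls in kidney numbered 7 for members and 9 for pathway genes, and the member median was 0.35. Kidney calls numbered 15 as deposited, 13 after quantile normalization (10 for pathway genes), 13 with the 430A floor on 430B, 8 on 430A alone and 14 with the median probe set. The share of members called in kidney was 18.1% against 26.6% of all genes as deposited, 14.9% against 23.1% after quantile normalization, 18.1% against 23.4% with that floor, 11.9% against 19.7% on 430A alone and 16.1% against 23.0% with the median probe set. Brain calls numbered 28 without a floor, 6 with the 75th percentile floor (4 for pathway genes) and 10 on 430B alone, and the member medians were -0.22 with that floor and -0.35 on 430B alone. Reverse calls in brain numbered 0 after median centring, 0 after quantile normalization, 7 without a floor and 3 with a median floor. Reverse calls in kidney numbered 3 without a floor, 2 with a median floor, 0 with a 90th percentile floor and 0 without marked probe sets. The reverse median was -0.052 after quantile normalization and 0.63 with the 90th percentile floor. Strand gap medians are given here under 1 setting only, so their dependence on the processing is not shown.

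Single genes that reversed, given as log2 ratios, were mostly kidney calls read on 430B. On the 430A scale they were 0.35 for Ube2q1, 0.069 for Usp24, 0.40 for Usp28, 0.43 for Usp3, 0.37 for Usp30, 0.41 for Usp37, 0.33 for Usp40, 0.089 for Usp42, 0.17 for Usp6nl and 0.055 for Usp7. As deposited they were 0.37 for Otud1, 0.36 for Otud7b, 0.83 for Ube2q1, 0.42 for Ube2v1, 0.56 for Usp24, 0.50 for Usp28, 0.92 for Usp3, 0.85 for Usp30, 0.89 for Usp37, 0.81 for Usp40, 0.58 for Usp42, 0.65 for Usp6nl and 0.54 for Usp7. On 430A alone they were 1.28 for Otud7b, 0.37 for Ube2h, 0.52 for Ube2v1, 0.29 for Usp24, -1.09 for Usp25 and 0.26 for Usp7. Otud5 was at -0.84 on 430B alone, Ube2d2a at 0.069 without marked probe sets and 0.15 with the median probe set, and Usp24 at 0.11 with the latter setting. Beyond scaling, array and probe set, the cause was not tested. No paired analysis was possible because each tissue had 1 array of each kind. Signals near the floor carry no order, and depth is not defined for arrays.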

Other observations

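Probe sets that the annotation gives to several genes were outside the member rule. Of these, 4 read Ube2l3, a broad E2, together with its pseudogenes, at 359.2 to 960.9 in brain and 587.6 to 1334.7 in kidney as deposited. One read Uchl3 together with Uchl4, at 208.3 in brain and 566.5 in kidney. The probe set of Uchl4 alone read 3.8 in brain and 3.1 in kidney.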
